A study of Mus musculus with 51 samples.

Results

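The Hox genes of the late fetal mouse kidney are described here, as all rows of the deposited expression table whose symbol is Hox, a cluster letter and a paralog number, with a mean of at least 10 over all libraries. Of the 35 Hox rows among 16099 genes, 33 met that minimum: 10 in the HoxA cluster, 8 in HoxB, 7 in HoxC and 8 in HoxD. The 2 rows below it were Hoxb1 (mean 7.16) and Hoxd13 (mean 9.31), and the lowest inside it was Hoxd1 (32.3). Other Hox genes were not analysed here.

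The libraries were made from poly-A transcripts of kidneys of C57BL/6 fetuses, which the labels call WT and for which they name no treatment. Kidneys were taken every 4 h at 13 time points, named CT0 to CT48 for the hours of the series, and the 51 libraries are 4 per time point except 3 at CT20. The labels give embryonic day 18 for CT0 to CT20, day 19 for CT24 to CT44 and day 20 for CT48, while the series' design text names a slightly later end. No label names a dam or litter, so p-values measure the spread between these samples, and kidneys of 1 time point may be littermates. In RNA from a tissue of many cell types, fewer cells of a type and less RNA per cell cannot be told apart.

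Hox genes encode homeodomain transcription factors that lie in 4 clusters, in which the order along the chromosome follows the paralog number and the position along the body axis where each gene is first used. Genes with the same number in different clusters, called paralogs, arose by duplication and often act redundantly. In the kidney the group 11 genes Hoxa11, Hoxc11 and Hoxd11 work with Eya1 and Pax2 to set up the metanephric mesenchyme, group 10 genes act in the stroma, and Hoxb7 is known as a gene of the Wolffian duct and ureteric bud whose promoter drives many ureteric transgenes.

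The values are normalised whole numbers and not reads, so the depth of a library is unknown, and library totals from 34226024 to 35711911 do not give it. Most genes have nearly the same mean in CT0 to CT24 (27 libraries, called the earlier span) as in CT28 to CT48 (24 libraries, the later span): over 12274 genes with a mean of 100 or more, the log2 difference of the span means had an SD of 0.0325. For the 31 Hox genes with a mean of 100 or more, the log2 difference of the span means ran from -0.0261 to 0.0355. The normalisation is not known and may have made the spans alike. Levels before and after the step from CT24 to CT28 may thus not share a scale, and changes were tested inside a span. No pair of libraries was identical.

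Levels between genes were compared as the value per kilobase of exon. Hoxd9 was highest at 1558 per kb (1153 to 2084 over 51 libraries), followed by Hoxd8 at 1510 (1250 to 1863) and Hoxa10 at 1458 (1074 to 1785). The ranges of these 3 overlap, and with the longest transcript as the length Hoxa10 came first at 1859 per kb, before Hoxd8 at 1573. Hoxb9 had 1338 per kb, Hoxd10 1290, Hoxb7 1138, Hoxb8 1076 and Hoxc10 974. The genes at the top of this order were thus of paralog groups 7 to 10. Other genes of these groups were low, such as Hoxc8 (150 per kb) and Hoxa7 (208). By the longest transcript Hoxb3 also ranked high, at 1082 per kb, above Hoxb8 and Hoxc10.

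The group 11 genes were unequal. Hoxa11 had 787 per kb (616 to 944) and Hoxd11 770 (635 to 976), whose ranges overlap, while Hoxc11 had 64.5 ± 11.4 (SD over 51 libraries), below both in every library. Hoxd12, the HoxD gene nearest the 5′ end among the 33, had 63.6 per kb (41.8 to 97.1). Hoxd1, a gene of the hindbrain end of its cluster, was among the lowest at 17.3 (5.37 to 32.8).

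Summed per kb over its members, HoxB reached 6359 and HoxD 5870, above HoxA with 3648 and HoxC with 2025. HoxB owed its sum to many genes, with 8 of 8 between 299 and 1338 per kb. HoxA owed 1458 of its 3648 to Hoxa10. In HoxC, Hoxc10 alone held 974 of 2025. The HoxD sum at CT48 was 5847 ± 149 (SD, n = 4) against 5824 ± 216 at CT28, and these overlap. The other sums were lower at CT48 without overlap. HoxA had 3220 (2990 to 3411) against 3946 (3802 to 4122), and HoxB 5934 (5816 to 6039) against 6625 (6500 to 6750). HoxC had 1691 ± 56.2 against 2242 ± 25.9. Between these ends the HoxB sum did not fall steadily. It was 6165 (5965 to 6362) at CT36 and 6517 (6192 to 6944) at CT44, which overlaps CT28. The HoxD sum was 6269 ± 421 at CT40.

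**Figure D1:**
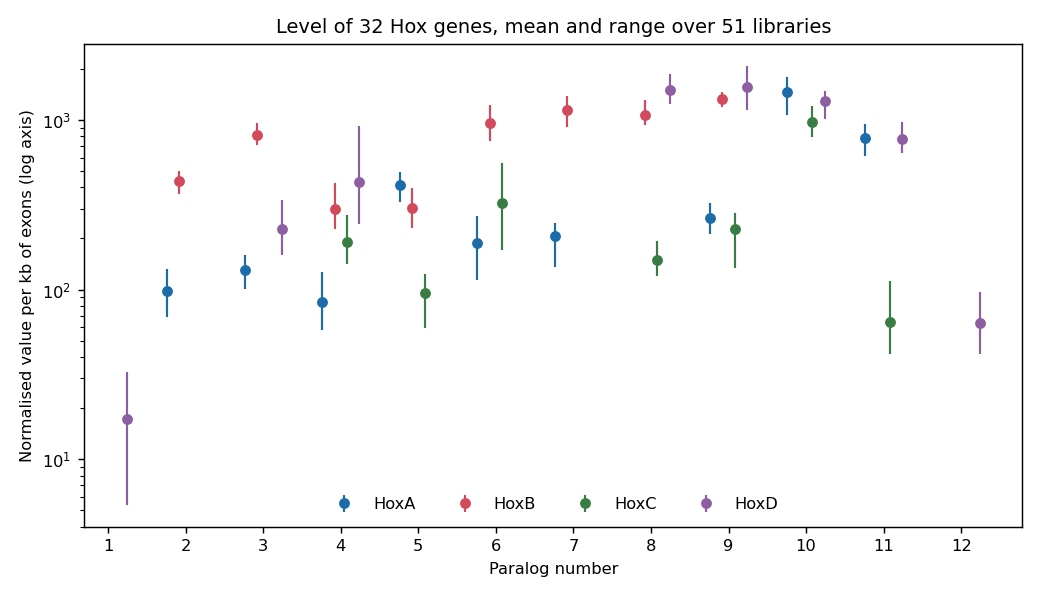
Normalised value per kb of exon (log axis) for 32 Hox genes by paralog number, with the mean as a point and the range over 51 libraries as a bar, coloured by cluster. The highest points are genes of groups 7 to 10, with Hoxd9 at 1558 per kb, while other genes of these groups lie lower. Hoxd1 lies lowest of those drawn.

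Per the GENCODE M21 annotation of GRCm38 (mm10), the 33 genes are protein-coding. HoxA lies on chromosome 6 on the minus strand. HoxB lies on chromosome 11 from 96271457 to 96354012, HoxC on chromosome 15 from 102954427 to 103036852 and HoxD on chromosome 2 from 74675013 to 74765142, all on the plus strand. Among the genes described most, Hoxa10 lies at chr6:52231197-52240854, Hoxa11 at chr6:52242106-52245810, Hoxb7 at chr11:96286623-96290162, Hoxc10 at chr15:102966796-102971893, Hoxc6 at chr15:102998257-103011881, Hoxd11 at chr2:74679557-74687016, Hoxd9 at chr2:74697727-74700208 and Hoxd4 at chr2:74711929-74729160. Exons of 16 members overlap those of another gene. More than 50% of the exon bases are shared for Hoxd3 (62.8%), Hoxb3 (52.9%) and Hoxd4 (52.3%), and 35% for Hoxa11, whose partner is a transcript on the opposite strand. Hoxd3 and Hoxd4 share exons with each other, and the sources used here do not say whether reads were assigned by strand, so single values of these genes are uncertain.

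The first question was whether Hox levels moved over CT0 to CT24. They were nearly level. The ratio of the highest to the lowest time-point mean had a median of 1.11 over the 33 genes and reached 1.35 at most. Tested with limma for any difference among the 7 time points, 7 of 33 Hox genes passed an adjusted p (Benjamini-Hochberg, over all genes tested) of 0.05, against 43.5% of all 14426 genes. A straight line in time was called for 1 Hox gene, lower, against 22.9% of all genes (12.9% higher, and 1444 genes lower). An unadjusted p under 0.05 was found for 4 of 33 Hox genes and for 5045 of all 14426 genes. The median absolute slope of the 33 was 0.04 per 24 h on the log2(value + 1) scale, and that of all genes 0.08.

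The 7 genes with a difference among time points were Hoxb3, Hoxb5, Hoxb7, Hoxc4, Hoxc6, Hoxc10 and Hoxd12. A low CT12 marked several of them: Hoxc4 had a mean of 431 at CT12 and 538 at CT20, and Hoxb5 752 at CT12 and 878 at CT24. CT12 was the lowest time point for 14 of 33 Hox genes and CT20 for 11. The lowest time point was not counted over all genes, so this may not be particular to Hox genes. Without CT12 the test called 3 Hox genes, against 38.4% of all genes. Without single replicate numbers it called between 1 and 9, against 16.6% to 38% of all genes. The library CT12 replicate 1 held the lowest value of the earlier span for 10 Hox genes, while it did so for 3.28% of all genes.

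Hoxb7 was the gene with a called slope. Its values at CT0 were 1789, 1880, 1811 and 1684, and at CT24 1671, 1627, 1742 and 1717. These ranges overlap. The line fell by 0.10 ± 0.04 (SE) per 24 h on the log2 scale (limma, adjusted p = 0.0452). It missed the threshold without replicate 1 (adjusted p = 0.156) or 2 (0.501), and without CT0 (0.067), CT4 (0.0948), CT8 (0.0629), CT20 (0.185) or CT24 (0.27). The same held with time-point means in place of libraries (adjusted p = 0.277) or an estimated correlation (adjusted p = 0.19).

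CT24 against CT0 compares embryonic day 19 with day 18 at the same clock hour. Hoxd12, a posterior gene of limb and urogenital tissue, had 173, 188, 176 and 203 at CT0 and 149, 159, 139 and 142 at CT24. All 4 later libraries lie below all 4 earlier ones. The difference was -0.33 ± 0.10 (SE, limma, adjusted p = 0.0114). Hoxc10 had 1845, 2015, 1809 and 1905 at CT0 against 1798, 1667, 1737 and 1763 at CT24, again without overlap, and fell by 0.12 ± 0.05 (adjusted p = 0.0499). These were the 2 Hox genes called, both lower, against 26.6% of all genes (14.3% higher, 12.2% lower). The Hoxc10 call sat at the threshold and was lost without CT0 replicate 2 (adjusted p = 0.19) or CT24 replicate 2 (0.157), and 4 other single libraries ended it too (0.0521 to 0.0907).

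Hoxa11 came next, with 1827, 1937, 1955 and 1834 at CT0 and 1815, 1665, 1720 and 1803 at CT24. The groups do not overlap, and the difference was -0.11 (adjusted p = 0.0548). It was called without CT0 replicate 1 (adjusted p = 0.0466), CT24 replicate 1 (0.0412) or CT24 replicate 4 (0.0494). Counting genes whose groups do not overlap, 3 Hox genes were higher at CT24, against 14.8% of all genes, and 3 lower, against 13.2%. The 3 higher were Hoxc6 (mean 811 against 728), Hoxc8 (449 against 402) and Hoxd4 (1338 against 1260), none of which passed the test.

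**Figure D2:**
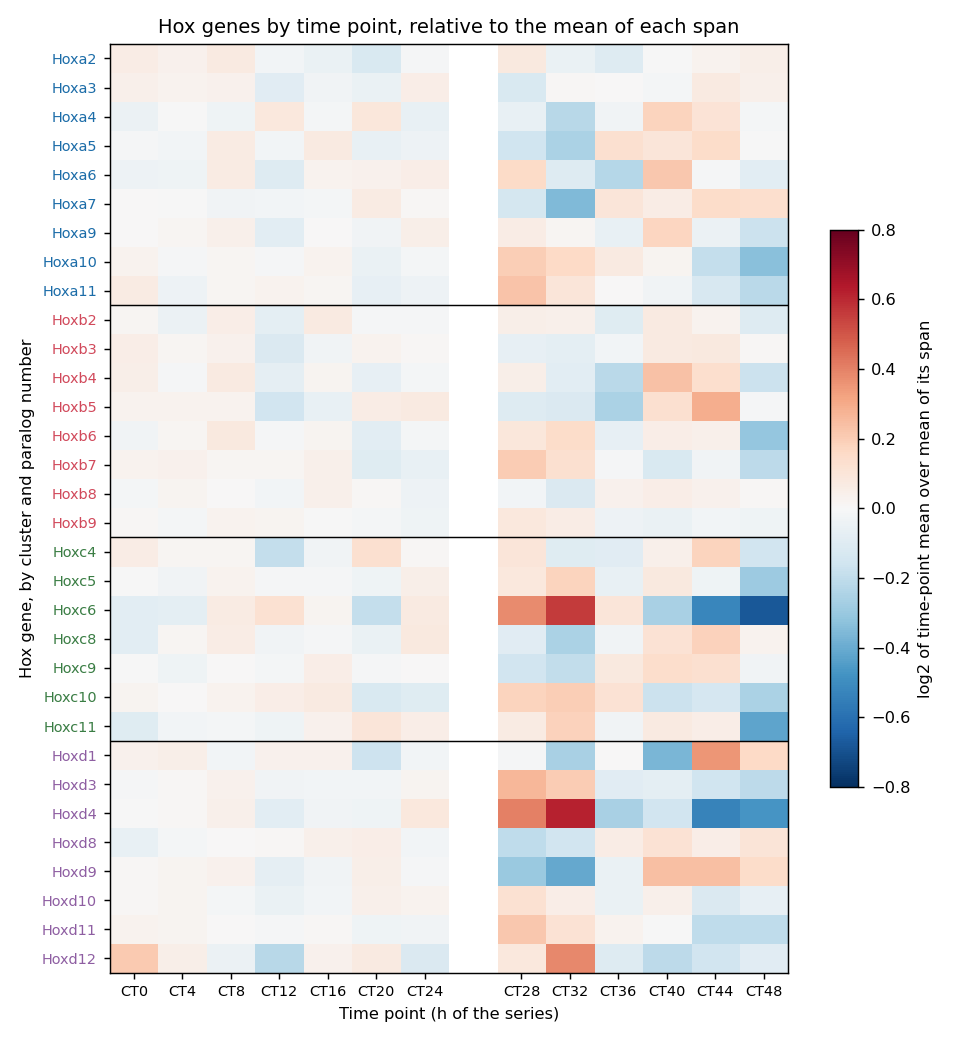
Log2 of each time-point mean over the mean of its span, for 32 Hox genes in cluster order (rows) at 13 time points (columns), with a gap between the spans. The earlier span is pale throughout, while in the later span Hoxc6 and Hoxd4 go from high to low and Hoxd9 from low to high.

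Over CT28 to CT48 the Hox genes spread apart, as did the genes at large. The ratio of the highest to the lowest time-point mean had a median of 1.36 and reached 2.35. Its median over all 14426 genes was 1.35, against 1.14 in the earlier span. Every one of the 33 had a wider range of values than in the earlier span. A difference among the 6 time points was called for 17 of 33 (limma, adjusted p under 0.05), against 64.7% of all genes. A slope was called for 18 of 33, against 59.3% of all genes. With a correlation between libraries of 1 time point estimated from the data, 12 of 33 were called, against 45.0% of all genes, and Hoxa5, Hoxb5, Hoxb9, Hoxc5, Hoxc8 and Hoxd10 lost their calls. Of the 18 called without that correlation, 12 were lower (36.4% of the 33, against 30.7% of all genes) and 6 higher (18.2% against 28.7%). The share of Hox genes that moved was thus near that of all genes. The spread between libraries of 1 time point was also wider, with a median SD on the log2 scale of 0.149 for the Hox genes against 0.0673 in the earlier span. For all genes it was 0.136 against 0.0748.

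The genes of groups 10 to 12 all had negative slopes, and 5 of the 7 were called lower, against 30.7% of all genes. Without Hoxd10, whose call depended on the setting, 4 remain. In group 9, which was counted apart, 2 of 4 slopes were positive, with 1 gene called higher and 1 lower. Hoxa10, which acts in stroma and the reproductive tract, had 5385, 5769, 5346 and 5244 at CT28 and 3781, 3511, 3926 and 3863 at CT48. The later libraries all lie below the earlier ones, at 0.694 times the CT28 mean. Hoxa10 fell by 0.64 ± 0.07 (SE) per 24 h on the log2 scale (limma, adjusted p = 1.71e-08). Its time-point means were 5436, 5312, 4982, 4815, 4168 and 3770 from CT28 to CT48, lower at each step. Over the earlier span they had stayed between 4619 and 4886.

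Hoxc10, its paralog, had 2102, 2062, 2202 and 2045 at CT28 and 1508, 1525, 1658 and 1532 at CT48. The groups do not overlap, and Hoxc10 fell by 0.59 ± 0.08 per 24 h (limma, adjusted p = 2.12e-07). The drop lay mainly between CT36, with a mean of 2010, and CT40, with 1649. Hoxd10, the third gene of the group, fell by 0.24 ± 0.08 (adjusted p = 0.012), from a mean of 2544 ± 147 (SD, n = 4) at CT28 to 2228 ± 110 at CT48, with overlapping libraries. Its call was lost without CT28 (adjusted p = 0.175) or replicate 2 (0.0566), with each library centred on its median (-0.15, adjusted p = 0.0938), with an estimated correlation (0.0851) and with time-point means in place of libraries (0.115).

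Hoxd11, one of the genes needed to form the metanephric kidney, had 4110, 3698, 3463 and 3723 at CT28 and 2889, 2753, 2673 and 2910 at CT48. The groups are separate, and Hoxd11 fell by 0.52 ± 0.07 per 24 h (limma, adjusted p = 9.32e-08). Hoxa11, its partner in that role, had 2067, 2160, 2052 and 2142 at CT28 and 1556, 1409, 1646 and 1592 at CT48. The fall was 0.50 ± 0.07 (adjusted p = 1.31e-06), close to that of Hoxd11. Both later groups stood near 0.74 times the earlier: 0.749 for Hoxd11 and 0.737 for Hoxa11.

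Hoxc11, the third and weakest group 11 gene, had no library above 162 at CT28, a mean of 149 ± 53.3 (SD, n = 4) at CT32, where replicate 3 reached 227, and 97.5 ± 10.2 at CT48, with a highest library of 108. CT48 is its lowest time point and does not overlap CT28. The slope was -0.43 ± 0.21 (limma, adjusted p = 0.0815) and did not pass, although it did without replicate 1 (-0.60, adjusted p = 0.0384) or CT44 (adjusted p = 0.0455). Hoxd12 had 183, 159, 164 and 184 at CT28, 150, 237, 217 and 246 at CT32, and 153 ± 17.1 (SD, n = 4) with a highest library of 173 at CT48. These groups overlap, and the slope of -0.45 ± 0.20 did not pass (adjusted p = 0.0551).

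**Figure D3:**
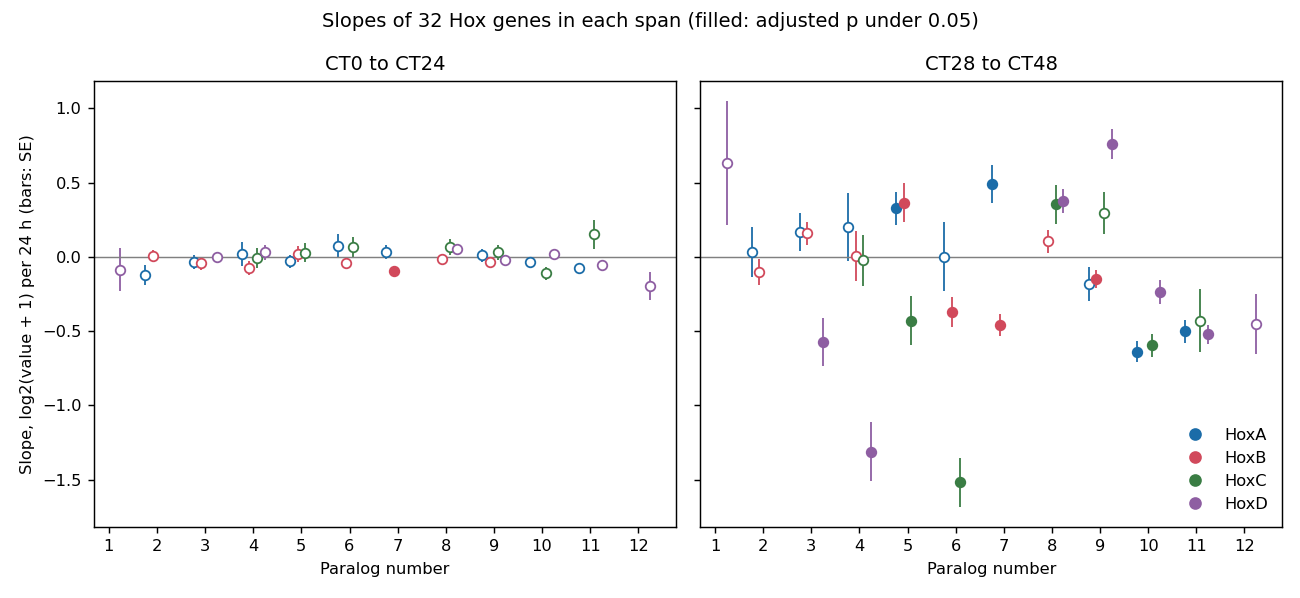
Slope per 24 h on the log2(value + 1) scale with its SE, for 32 Hox genes by paralog number and cluster, in CT0 to CT24 (left) and CT28 to CT48 (right). Filled points passed an adjusted p of 0.05. The 7 genes of groups 10 to 12 all lie below 0 on the right, and Hoxc6 (-1.52) and Hoxd4 (-1.31) lie lowest.

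The 2 steepest slopes belonged to genes of the middle and anterior groups. Hoxc6, a gene of the thoracic level of the body axis, had 924, 987, 1031 and 1123 at CT28, 984, 1169, 1345 and 1113 at CT32, and 524, 491, 439 and 504 at CT48. The last group was 0.482 times the first, without overlap. In CT0 to CT24 all 27 libraries had lain between 654 and 917. Hoxc6 fell by 1.52 ± 0.16 per 24 h on the log2 scale (limma, adjusted p = 9.46e-09).

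Hoxd4, a gene of the hindbrain and neck level, had 1982, 1703, 1588 and 1581 at CT28, 1759, 1608, 2724 and 1838 at CT32, 1182, 927, 904 and 1312 at CT36, and 945, 905, 964 and 910 at CT48. All 8 libraries of CT28 and CT32 lie above all 8 of CT36 and CT48. Hoxd4 fell by 1.31 ± 0.20 per 24 h (limma, adjusted p = 3.3e-06). Its neighbour Hoxd3, which shares exons with it, fell by 0.58 ± 0.16 (adjusted p = 0.00283), from 1142 ± 91.2 (SD, n = 4) at CT28 to 824 ± 52.9 at CT48, and missed the threshold without CT28 (-0.49, adjusted p = 0.0782).

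Hoxd9 went the other way, while it lies between Hoxd4 and the falling Hoxd10 and Hoxd11 on chromosome 2. It had 2809, 2719, 2716 and 2712 at CT28, 2501, 2523, 2462 and 2658 at CT32, 3753, 4451, 3655 and 4049 at CT40, and 3739, 3653, 3856 and 3633 at CT48. Every library from CT36 on lies above every one of CT28 and CT32. Hoxd9 rose by 0.76 ± 0.10 per 24 h (limma, adjusted p = 2.88e-07), and CT48 was 1.36 times CT28. Hoxd8, its neighbour, which was chosen after its values were seen, had 3755, 3512, 3693 and 3431 at CT28 against 4584, 4286, 4208 and 4696 at CT48, and rose by 0.38 ± 0.08 (adjusted p = 0.000217). Within HoxD the called genes in chromosome order were thus Hoxd11 and Hoxd10 lower, Hoxd9 and Hoxd8 higher, and Hoxd4 and Hoxd3 lower.

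Upstream sequence of 4 of these neighbours is shown because they moved in different directions within 1 cluster. The windows of Hoxd9 and of the first annotated Hoxd11 start are not shown, and they held none of the motifs listed below. That of Hoxd3, with an AGGTCA site and a CCAAT box, is not shown either. Each line gives the 250 bases before an annotated start, 5′ to 3′ on the plus strand, from RefSeq on GRCm38.p6. Capitals mark matches, on both strands, to 6 motifs. They are TATAAA, the core of the TATA box, and the CCAAT box of many housekeeping and developmental promoters. The E-box CACGTG is bound by CLOCK and BMAL1, and the nuclear receptors REV-ERB and ROR bind AGGTCA with flanking letters. The D-box was searched as TTANGTAA, and the joint site of PBX and HOX proteins as TGATNNAT.
Hoxd11 (chr2:74682073-74682322, second annotated start; lower): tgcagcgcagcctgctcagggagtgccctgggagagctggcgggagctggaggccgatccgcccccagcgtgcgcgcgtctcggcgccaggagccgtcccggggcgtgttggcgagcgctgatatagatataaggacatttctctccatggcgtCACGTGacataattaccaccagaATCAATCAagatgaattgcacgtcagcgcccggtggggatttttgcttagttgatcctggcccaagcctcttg
Hoxd10 (chr2:74691641-74691890; lower): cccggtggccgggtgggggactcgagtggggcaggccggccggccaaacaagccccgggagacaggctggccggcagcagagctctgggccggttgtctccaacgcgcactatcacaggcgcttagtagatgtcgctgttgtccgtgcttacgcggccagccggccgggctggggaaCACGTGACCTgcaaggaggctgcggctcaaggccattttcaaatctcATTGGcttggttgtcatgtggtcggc
Hoxd8 (chr2:74704365-74704614; higher): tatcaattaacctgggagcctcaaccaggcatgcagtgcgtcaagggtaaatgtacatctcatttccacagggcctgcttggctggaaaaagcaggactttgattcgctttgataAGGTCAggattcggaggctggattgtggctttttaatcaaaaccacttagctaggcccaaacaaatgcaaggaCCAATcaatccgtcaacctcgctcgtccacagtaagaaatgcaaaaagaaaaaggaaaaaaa
Hoxd4 (chr2:74721728-74721977; lower): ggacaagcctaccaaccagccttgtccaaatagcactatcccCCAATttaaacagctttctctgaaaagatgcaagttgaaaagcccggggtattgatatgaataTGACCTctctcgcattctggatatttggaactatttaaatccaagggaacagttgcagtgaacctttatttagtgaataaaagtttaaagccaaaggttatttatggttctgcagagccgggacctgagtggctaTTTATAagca
In the windows shown, Hoxd11 and Hoxd10 each hold an E-box, and Hoxd11 also holds a PBX-HOX site. The E-box of Hoxd10 runs into an AGGTCA site on the minus strand. Hoxd10, Hoxd8 and Hoxd4 each hold an AGGTCA site and a CCAAT box. Hoxd4 also holds TATA-box letters close to its start, on the minus strand and so opposite to the gene.

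The table of promoters had 21 windows for 19 of the 33 Hox genes. Of these windows 3 held the E-box (Hoxd1, Hoxd10 and Hoxd11), against 6.02% of 32851 windows of the same length over all genes. The AGGTCA site was in 6 Hox windows against 4607 of all, CCAAT in 11 against 33.8%, TATAAA in 3 against 12.4%, TGATNNAT in 3 against 7.68% and TTANGTAA in 0 against 2.06%. Hox windows were richer in CpG, with a median of 12 per window against 6. Such matches are letters in a window and were not tested as sites.

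The remaining HoxB genes with a called slope were mostly lower. Hoxb7 had 2048, 1975, 2139 and 1934 at CT28 and 1424, 1602, 1499 and 1540 at CT48. The groups are well apart, and Hoxb7 fell by 0.46 ± 0.07 per 24 h (limma, adjusted p = 5.53e-06). Hoxb6, its neighbour, had 1974, 2048, 1904 and 2044 at CT28 and 1505, 1470, 1562 and 1505 at CT48, and fell by 0.37 ± 0.10 (adjusted p = 0.00232). The Hoxb6 change lay at the last time point: its means from CT28 to CT44 were 1992, 2068, 1786, 1946 and 1929, and without CT48 the slope was -0.11 (adjusted p = 0.452).

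Hoxb9, the highest HoxB gene per kb of all its exons (by the longest transcript Hoxb7 was higher, at 1361 against 1338), had 3718, 3683, 3577 and 3684 at CT28 and 3144, 3751, 3176 and 3432 at CT48. These overlap, and the fall of 0.15 ± 0.06 per 24 h (adjusted p = 0.0338) was the smallest that passed. It missed the threshold with each library centred on its median (-0.07, adjusted p = 0.342), without CT28 (0.325) or CT32 (0.109), and without replicate 1 (0.172), 3 (0.0912) or 4 (0.0917).

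Of the 6 genes that rose, Hoxa7 rose by 0.49 ± 0.13 per 24 h (limma, adjusted p = 0.00163), from 545 ± 38.3 (SD, n = 4) at CT28 and 470 ± 63.9 at CT32 to 659 ± 47.7 at CT48. The other 3 beside Hoxd9 and Hoxd8 were smaller. Hoxb5 rose by 0.36 ± 0.13 (adjusted p = 0.0186), with its peak of 1028 ± 74.2 at CT44 and 834 ± 44.1 at CT48. Hoxc8 rose by 0.35 ± 0.13 (adjusted p = 0.022) and Hoxa5 by 0.33 ± 0.11 (adjusted p = 0.0152). Hoxb5 was not called without CT32, CT44 or replicate 3 or 4 (adjusted p 0.0508 to 0.183). Hoxc8 was not called without CT32, CT44 or replicate 4 (0.117 to 0.154), and Hoxa5 without CT28, CT32, CT44 or replicate 3 or 4 (0.0669 to 0.139).

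Paralogs of 1 number did not always move together. In 3 of the 12 paralog groups called genes went both ways, in group 7 alone with an estimated correlation and in none with time-point means in place of libraries. In group 7 Hoxa7 rose and Hoxb7 fell. In group 9 Hoxd9 rose while Hoxb9 fell, and Hoxa9 (-0.18, adjusted p = 0.158) and Hoxc9 (0.30, adjusted p = 0.0769) did not pass. In group 5 Hoxa5 and Hoxb5 rose, while Hoxc5 fell by 0.43 ± 0.16 (limma, adjusted p = 0.0249). The Hoxc5 call was lost with each library centred on its median (-0.35, adjusted p = 0.0659), with quantile normalisation (0.0546), without CT32 (0.0923) or CT48 (0.373), and without replicate 1, 2 or 3 (0.0583 to 0.126). In group 4 Hoxd4 fell steeply, while Hoxa4 (0.20 ± 0.23), Hoxb4 (0.01 ± 0.17) and Hoxc4 (-0.02 ± 0.17) did not pass. Differences between paralogs were not tested.

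In groups 10 and 11 the 5 called genes, from HoxA, HoxC and HoxD, were all lower, and differences between paralog groups or clusters were not tested either. The shares over all genes in this span were 28.7% higher and 30.7% lower. By cluster, the called genes were 2 higher and 2 lower of 10 in HoxA, 1 and 3 of 8 in HoxB, 1 and 3 of 7 in HoxC, and 2 and 4 of 8 in HoxD. In groups 1 to 4, 2 of 11 were called, both lower. In groups 5 to 8, 9 of 11 were called, 5 higher and 4 lower.

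**Figure D4:**
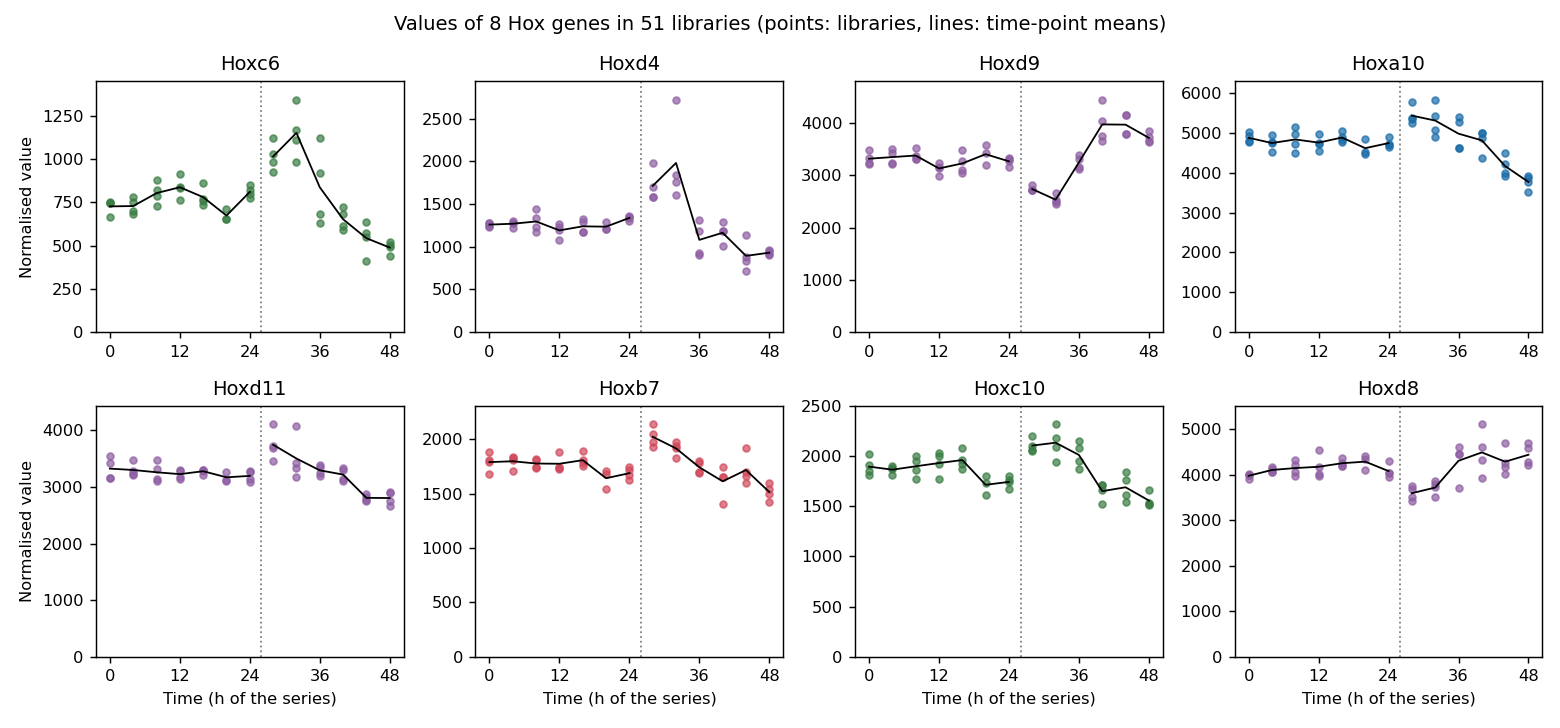
Normalised values of 8 Hox genes in 51 libraries (points) against time in hours, with time-point means as lines and a dotted line between the spans. Hoxc6, Hoxd4, Hoxa10, Hoxd11, Hoxb7 and Hoxc10 run from high to low after the dotted line, and Hoxd9 and Hoxd8 from low to high.

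CT36 was compared with CT32 because an earlier analysis of these data had placed CT28 and CT32 apart from the rest. It was the only step inside the later span that was tested. Its p-values thus belong to a step chosen with the data known. In that step 7 of 33 Hox genes were called (limma, adjusted p under 0.05), against 34.8% of all genes. Of these 4 were higher at CT36 (against 15.7% of all): Hoxa7 by 0.46, Hoxa5 by 0.38, Hoxd9 by 0.36 and Hoxd8 by 0.21. The 3 lower (against 19.1%) were Hoxd4, by 0.86 ± 0.14 (adjusted p = 7.29e-05), Hoxc6, by 0.49 ± 0.14 (adjusted p = 0.00814), and Hoxb6, by 0.21 ± 0.08 (adjusted p = 0.0354). Hoxc6 had 919, 682, 629 and 1123 at CT36, which overlap CT32, and was not called without CT36 replicate 3 (-0.36, adjusted p = 0.0533). The ID of that library has another prefix than the rest of the span. Without it 4 of 33 Hox genes were called, against 28.2% of all genes. Hoxb6 was not called with each library centred on its median (-0.17, adjusted p = 0.087), without CT32 replicate 3 (-0.13, adjusted p = 0.198) or CT36 replicate 2 (0.102) or 3 (0.149), nor Hoxd8 without any of CT32 replicate 1 and CT36 replicates 1, 2 and 3 (0.0542 to 0.0858).

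The CT48 libraries did not overlap those of CT28 for 13 of 33 Hox genes, against 48.7% of all genes. Of these 10 were lower at CT48, against 25.7% of all genes, and the others were Hoxa7, Hoxd8 and Hoxd9. With CT28 and CT32 left out, 4 of the 18 slopes were still called: Hoxa10, Hoxc6, Hoxc10 and Hoxd11, all lower, when 7.44% of all genes were called over the shorter span. Hoxa11 (-0.45, adjusted p = 0.0709), Hoxd4 (-0.59, 0.172), Hoxb7 (-0.31, 0.214) and Hoxd9 (0.35, 0.175) kept their sign, and Hoxa5 (-0.22) and Hoxb9 (0.03) changed it. With 6 time-point means in place of libraries, 10 of 33 were called, against 37.7% of all genes.

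CT32 replicate 3 held the highest value of the later span for 7 Hox genes, Hoxd4 (2724) and Hoxc6 (1345) among them, when it did so for 9.05% of all genes. No call of a later-span slope for the 12 genes given in full was lost without replicate 3 except that of Hoxb9.

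The spans themselves were compared by testing the difference of their slopes over all 51 libraries, called for 18 of 33 Hox genes against 55.1% of all genes. Of these 12 were more negative in the later span (29.8% of all genes) and 6 more positive (25.3%). Hoxc6 had slopes of 0.07 and -1.52, a difference of -1.59 ± 0.17 (limma, adjusted p = 7.29e-11). Hoxd4 (0.03 and -1.31) differed by -1.34 ± 0.19 (adjusted p = 6.21e-08), and Hoxd9 (-0.02 and 0.76) by 0.78 ± 0.10 (adjusted p = 7.26e-09). Hoxa10 differed by -0.61 ± 0.07 (adjusted p = 1.15e-09). A difference of slopes does not use the means of the spans. The normalisation is not known, however, and neither is whether it changed the scale of values within a span. The fit of the slope difference shares 1 spread between spans whose spread differed. With a spread for each span, an alternative chosen after seeing the data, 17 of 33 were called against 51.4% of all genes, and Hoxb3 was lost (adjusted p = 0.0786).

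Since the series title names the circadian clock, a 24 h cycle was fitted beside a line in each span. It was called for 1 of 33 Hox genes, against 8.36% of all genes. An unadjusted p under 0.05 was found for 9 of 33 Hox genes and for 3766 of all 14426 genes, a similar share. Hoxd9 had an amplitude of 0.10 on the log2 scale with a peak at 18.4 h (limma, adjusted p = 0.0421). Its values in the earlier span ran from 2988 to 3578, with the lowest mean at CT12 (3134, with 2988 to 3242 over 4 libraries) and the highest at CT20 (3407, with 3206 to 3578 over 3 libraries), which overlap. The call was lost without any 1 of the 4 replicate numbers (adjusted p 0.0736 to 0.229) and without CT12, CT20, CT32, CT40, CT44 or CT48 (0.0647 to 0.456). With time-point means in place of libraries it was 0.804, and no gene of 14426 passed. Next came Hoxa5 (adjusted p = 0.0511) and Hoxc6 (0.0524), with amplitudes of 0.09 and 0.15, and both were called with each library centred on its median.

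The authors' deposited table of rhythm tests gave a JTK q under 0.05 for 18 of 33 Hox genes, against 49.3% of all genes, and a combined q under 0.05 for 14 of 33, against 45.8%. In the authors' deposited table the smallest JTK q values were those of Hoxc6 (9.69e-05, period 24 h), Hoxc10 and Hoxd4 (0.000255 each, period 28 h). These are among the genes with the steepest lines in the later span.

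Other genes of the pathway are given from lists, whose counts of called slopes are to be read against all genes, of which 22.9% were called in the earlier span, and 28.7% higher and 30.7% lower in the later. Hox proteins bind DNA with TALE cofactors of the Pbx, Meis and Pknox families. Of 9 cofactors tested, 3 had a called slope in CT0 to CT24, all lower, Meis1 (-0.16) and Pbx3 (-0.11) among them. In CT28 to CT48, Meis2 fell by 0.32 ± 0.06 per 24 h (limma, adjusted p = 6.22e-05) and Meis1 by 0.29 ± 0.09 (adjusted p = 0.00632), while Pbx4 rose by 0.78 ± 0.29 (adjusted p = 0.0208). Meis2 had a mean of 6598 ± 255 (SD, n = 4) at CT28 and 5439 ± 225 at CT48. Pbx4 had values of only 30 to 78 at CT28 and 53 to 83 at CT48, which overlap.

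Polycomb proteins keep Hox clusters silent where they are not used, and some rose while others fell. In the earlier span 4 of 17 were called, all lower: Ezh2 (-0.19), Bmi1 (-0.18), Eed (-0.14) and Cbx2 (-0.14). In the later span 7 of 17 were higher and 5 lower, 12 in all where 59.3% of all genes were called. Ezh2, the main H3K27 methyltransferase of dividing cells, fell by 1.05 ± 0.12 per 24 h (limma, adjusted p = 1.74e-08), from 3354 ± 272 (SD, n = 4) to 2080 ± 79.5. Cbx7, a reader of that mark, rose by 1.38 ± 0.16 (adjusted p = 4.24e-08), from 219 ± 20.4 to 504 ± 80. Pcgf2 rose by 0.59 ± 0.08 and Eed fell by 0.61 ± 0.10.

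Trithorax-type activators and H3K27 demethylases had 3 of 9 called in the earlier span, all lower (Psip1 -0.19, Dpy30 -0.12 and Wdr5 -0.08). In the later span 2 were higher and 5 lower. Dpy30, a core subunit of H3K4 methyltransferases, fell by 0.94 ± 0.10 (limma, adjusted p = 7.29e-09), from 2452 ± 237 (SD, n = 4) at CT28 to 1386 ± 79.4 at CT48. Men1 fell by 0.43 ± 0.07 and Psip1 by 0.31 ± 0.06, and the demethylase Kdm6a rose by 0.36 ± 0.11. Other genes of this list were not analysed here.

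Retinoic acid and Gdf11 set Hox domains in the early embryo. Of 7 such regulators tested, Cyp26a1, which degrades retinoic acid, and its receptor Rarb were lower in the earlier span (-0.46 and -0.16). In the later span Cyp26a1 (1.69 ± 0.63), Cyp26b1 (0.85 ± 0.31) and Rara (0.25 ± 0.08) rose, and Gdf11 fell by 0.38 ± 0.14. Cyp26a1 was near the floor of the table, at 8 to 52 at CT28 and 25 to 43 at CT48, which overlap.

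The group 11 genes act with Eya1 and Pax2 upstream of Six2, Gdnf and Itga8. In the earlier span Six2, a gene of nephron progenitors, fell by 0.21 ± 0.06 (limma, adjusted p = 0.0167), and Itga8 rose by 0.21 ± 0.04. In the later span Six2 fell by 0.57 ± 0.08 (adjusted p = 8.02e-07), from 2824 ± 168 (SD, n = 4) to 2005 ± 62.2, while Itga8 rose by 0.56 ± 0.10 and Pax2 by 0.34 ± 0.10. Gdnf (-0.03, adjusted p = 0.772) and Eya1 (0.25, adjusted p = 0.0622) did not pass. Hoxa11, Hoxd11 and Six2 were thus lower together in the later span, and Itga8 was not.

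Markers of other cell states moved in the same hours. All 8 cell-cycle genes were lower in the later span, with a median slope of -0.84, and their summed value went from 51413 to 54216 over the CT28 libraries to 33129 to 39473 at CT48. In the earlier span 6 of 8 were lower, with a median of -0.22. Of 8 nephron progenitor markers 5 were lower in the later span (Crym -1.08, Cited1 -0.78, Phf19 -0.59, Six2 -0.57 and Meox1 -0.44), with sums of 10111 to 11207 at CT28 and 8265 to 9522 at CT48. Their part in the falls of single Hox genes described above was not tested.

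Of 6 ureteric tip markers 4 were higher in the later span (Etv5 0.58, Gfra1 0.50, Etv4 0.40 and Ret 0.37), with sums of 11903 to 13048 at CT28 and 13528 to 14858 at CT48, whereas Hoxb7, the ureteric bud gene, fell. Of 10 collecting duct markers 6 were higher and 3 lower. Among stromal genes Foxd1 (0.57) and Ntn1 (0.43) of 5 cortical markers were higher, and 4 of 9 interstitial genes were higher and 2 lower. The part of these markers in the Hox values was not tested.

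Other lists gave these calls in the later span: early nephron 2 higher and 2 lower of 7, podocyte 2 and 2 of 6, proximal tubule 2 and 1 of 9, loop and distal tubule 3 and 2 of 6, endothelium 5 and 1 of 7, macrophage 5 and 0 of 5, and urothelium 1 and 1 of 5. Markers of other tissues were present at different levels. Adrenal cortex markers summed to at most 671 per library, gonad to 173 to 404 and adipose to 1 to 42, with 1 of 3, 2 of 4 and none tested, the calls being higher. Skeletal muscle summed to 226 to 3419 with 1 of 8 lower, and liver to 7597 to 14736 with 2 of 6 higher. Smooth muscle had 0 of 5 called in limma, with 0 at an unadjusted p under 0.05. Its summed value ran from 22649 to 47853 at CT48.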

How the data were processed

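RNA from fetal mouse kidneys was made into TruSeq poly-A libraries and sequenced on HiSeq instruments, per the labels' protocols. The submitters' processing notes name STAR 2.5.2b, featureCounts 1.5.0-p3 and the mm10 build, and no source used here gives the annotation, strand setting or normalisation. The deposited expression values are a score for each gene, normalised and rounded by the authors to whole numbers, so no count test was used and depth is unknown. The authors also deposited p-values and q-values of rhythm tests, with periods, phases and amplitudes as a score each, per the file headers.

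Values were tested as log2(value + 1) with limma 3.58.1 in R 4.3.3, with a variance trend and robust moderation, over the 14426 of 16099 genes with a mean of 10 or more. Differences among time points and slopes were fitted within CT0 to CT24 (the earlier span) and CT28 to CT48 (the later span), the slope difference, the 2 pairs of time points and a 24 h cosine beside them, with Benjamini-Hochberg adjustment over all genes tested and a threshold of 0.05. The method was tested on simulated data. There the slope difference called more unchanged genes than the threshold allows when 1 spread was shared by both spans. With a spread for each it called fewer, but still more than the threshold allows. The simulated noise was independent between libraries, so the effect of a correlation within time points was not covered. The 12 Hox genes given in full were, per cluster, up to 2 with the largest called slope in each span and the highest per kb, those called at CT24 against CT0 or in the rhythm, and Hoxa11, Hoxc11, Hoxd11 and Hoxb7. The Hox genes, the gene lists and the comparison of CT36 with CT32 were chosen with earlier results of these data known. Symbols were matched to GENCODE M21 and to RefSeq promoters. Alternatives were other pseudocounts, filters, scalings and moderation, a replicate block, time points as the unit, and single replicates, libraries or time points left out. Single values of some genes are not reported here, although counts over the Hox genes and the lists include them.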

Additional observations from a re-analysis of the deposited data

Results flagged for a closer look

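In 5 of 144 groups of 4 libraries (3.47%) 1 library stood far from the other 3, measured as its gap to the nearest of them over the range of the group, and chance alone marks about 1 in 20 such groups. The ratio was 0.868 for Hoxb7 in CT12 replicate 2, which had 1888 against 1729 to 1750 in the others. It was 0.900 for Hoxc6 in CT0 replicate 3, with 664 against 745 to 754. For Hoxc10 in CT48 replicate 3 it was 0.840, with 1658 against 1508 to 1532, and for Hoxc11 in CT16 replicate 1 it was 0.871, below 139 to 143. Hoxd9 in CT28 replicate 1 had a ratio of 0.928, with 2809 against 2712 to 2719.

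The slope of CT28 to CT48 differed from that of CT0 to CT24 for 18 Hox genes by a test of the difference itself (limma, adjusted p under 0.05). The differences per 24 h on the log2 scale were negative for Hoxc6 (-1.59), Hoxd4 (-1.34), Hoxa10 (-0.61), Hoxc11 (-0.58), Hoxd3 (-0.57), Hoxc10 (-0.48), Hoxd11 (-0.47), Hoxc5 (-0.46), Hoxa11 (-0.43), Hoxb7 (-0.36), Hoxb6 (-0.33) and Hoxd10 (-0.25). They were positive for Hoxd9 (0.78), Hoxa7 (0.46), Hoxa5 (0.35), Hoxb5 (0.35), Hoxd8 (0.32) and Hoxb3 (0.20). Hoxc11 (adjusted p = 0.524), Hoxb6 (0.626) and Hoxc5 (0.238) lost the call with CT48 left out. Hoxb3, Hoxb5, Hoxc5, Hoxc11 and Hoxd10 lost it with an estimated correlation within time points (adjusted p 0.0578 to 0.167), and Hoxb3 with a spread for each span (0.0786).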

How the results depend on the processing

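Of the values for single Hox genes under other settings, 1626 kept direction and side of the threshold, 226 kept direction but missed it, 10 newly passed it and 5 changed sign. The cause of the changes was not tested, beyond fewer samples where some were left out. Leaving out time points from the tests among time points and of rhythm was chosen after seeing the data.

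Without CT28 and CT32, 8 Hox genes (not 17) were called among time points of the later span, against 22% of all genes (not 64.7%). By slope 0 were higher and 4 lower (not 6 and 12), against 7.44% of all genes (not 59.3%). By slope difference 1 was higher and 7 lower (not 6 and 12), against 20.2% of all genes (not 55.1%). By rhythm 0 were called, against 6.74% of all genes. The slopes of Hoxb9 (0.030) and Hoxa5 (-0.22) and the slope differences of Hoxd8 (-0.0072) and Hoxa5 (-0.19) then changed sign, as did Hoxc11 at CT36 against CT32 without CT32 replicate 3 (0.040, the range over left-out libraries being -0.31 to 0.040). Higher slopes in the later span were 2 with time points as the unit, 3 with an estimated correlation, and 3 without CT32 or CT44, and higher slope differences 2 with time points as the unit.

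In the earlier span, without CT12, 3 Hox genes differed among time points (not 7), against 38.4% of all genes (not 43.5%). Lower slopes (1) became 2 with quantile normalisation or without CT16, and 0 with time points as the unit, an estimated correlation, or without CT0, CT8, CT20 or CT24, where 1 was higher. At CT24 against CT0, lower calls (2) became 1 with pseudocount 10, no filter, quantile normalisation, centring or plain moderation, and higher calls (0) became 1 with the replicate block, 1 without the libraries of another ID prefix, and 2 with only the 2 groups. The libraries of another ID prefix are CT12 replicate 4 and CT36 replicate 3. At CT36 against CT32, lower calls (3) became 1 without them.

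Rhythm calls (1) became 3 with a filter of 100 or quantile normalisation, 4 with centring, 0 with time points as the unit or an estimated correlation, and 5 with 1 common line and a step. Without CT0 they were 5, CT8 4, CT20 0, CT24 3, CT28, CT36 or CT40 2, and CT44 0. Over these settings the share of all genes called ran from 0%, with time points as the unit, to 12.3%, with the common line.

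With single replicates or libraries left out, calls ran from 1 to 9 and 13 to 16 among time points (earlier and later span), 0 to 1 lower slopes in the earlier span, 4 to 6 higher and 10 to 11 lower in the later, 4 to 6 and 10 to 12 slope differences, 1 to 3 lower at CT24, 3 to 5 higher and 1 to 4 lower at CT36, and 0 to 0 by rhythm. Same-numbered libraries were not treated as pairs: the correlations of their deviations ran from -0.302 to 0.38 (median 0.0355) in the earlier span and from -0.0859 to 0.153 (median 0.00476) in the later, and 11 of 27 and 8 of 24 libraries correlated best with their own number. With the replicate block, calls were 9 and 19 among time points (51.5% of all genes in the earlier span, not 43.5%), 4 at CT24 against CT0 (not 2), and as many as without it in the other tests. Depth is unknown and sets no limit here.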

Other observations

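At CT36, replicates 1 and 4 both lay above replicates 2 and 3 for 16 of 33 Hox genes (48.5%), against 23.6% of all genes. The same held for 10 of the 12 Hox genes with a called fall (83.3%). Both lay below for 7 of 33 (21.2%) and for 0 of the 12, against 30.6% of all genes. This pattern was looked at after the values were seen. The 12 genes were picked by fits that used these CT36 libraries. No share was counted over all genes with a called fall. Whether the 83.3% is particular to Hox genes is thus not known. The ID of replicate 3 has another prefix than those of replicates 1, 2 and 4. The summed cell-cycle values of these libraries were 38888, 38006, 38781 and 35814 for replicates 1 to 4.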
